A study of Homo sapiens with 6 samples.

Results

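The genes described here are 9 genes of double-stranded RNA sensing, TLR3, RIGI, IFIH1, DHX58, EIF2AK2, ZNFX1, ADAR, TICAM1 and MAVS, taken by gene identifier from the 19402 genes of the count table. All 9 were found, and all 9 were among the 13388 genes counted deeply enough to be tested. RNA with poly(A) tails was sequenced from CFPAC1, an established human line of pancreatic ductal adenocarcinoma grown in IMDM with fetal bovine serum, glutamine and antibiotics. The 3 libraries labelled WT came from pools of clonal lines isolated by dilution after infection with the lentiCRIPSv2 plasmid, and the 3 libraries labelled IRF1-KO from pools of clonal lines isolated the same way after infection with that plasmid carrying wild-type Cas9 and a guide RNA against IRF1. No interferon or RNA ligand is named in the labels of these samples. The labels do not say how many clones made a pool, and pools of 1 group may share clones. The question put to these genes was whether the sensors and their adaptors differed alike between the pools.

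Cells detect viral and misplaced cellular RNA by its double-stranded form. TLR3 is a Toll-like receptor that reads such RNA in endosomes and signals through the adaptor TICAM1 (also called TRIF). RIGI and IFIH1 (MDA5) are helicases that read it in the cytosol and signal through MAVS, an adaptor on the mitochondrial surface, while DHX58 (LGP2) belongs to the same helicase family but lacks the signalling domains of the other two. EIF2AK2 (PKR) is a kinase that stops translation on binding double-stranded RNA, ZNFX1 is an RNA helicase that can bind viral RNA and act with MAVS, and ADAR edits adenosine to inosine and so keeps the cell's own double-stranded RNA from being detected. Most of the sensors and the interferon-induced form of ADAR are themselves interferon-stimulated genes, and IRF1, the targeted transcription factor, binds promoter elements of the interferon-response type.

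The promoters are shown first. The windows of 3 sensors, TLR3, IFIH1 and EIF2AK2, hold matches to the interferon-response core GAAANNGAAA. Those of the sensor RIGI, of ADAR and of both adaptors hold no match to this core. RefSeq windows of the GRCh38.p14 build, from 250 bases before to 50 bases after the start of a gene, were used. They were given for 7 of the 9 genes, and the sensors DHX58 and ZNFX1 had none. In the sequences below, read 5′ to 3′ along the gene, capitals mark the interferon-response core GAAANNGAAA and the STAT element TTCNNNGAA, each searched on both strands. The TLR3 window (chr4:186068906-186069205, plus strand) and the IFIH1 window (chr2:162318635-162318934, minus strand) belong to sensors of the endosome and the cytosol. The EIF2AK2 window lies at chr2:37156931-37157230, minus strand. The windows of the adaptors, TICAM1 (chr19:4831663-4831962, minus strand) and MAVS (chr20:3846584-3846883, plus strand), hold no capitals.
TLR3: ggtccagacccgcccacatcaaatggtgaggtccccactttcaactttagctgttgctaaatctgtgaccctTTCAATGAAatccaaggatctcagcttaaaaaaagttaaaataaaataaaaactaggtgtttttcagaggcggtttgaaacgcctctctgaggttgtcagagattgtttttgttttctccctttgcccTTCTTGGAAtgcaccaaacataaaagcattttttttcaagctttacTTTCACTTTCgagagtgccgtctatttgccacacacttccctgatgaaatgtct
IFIH1: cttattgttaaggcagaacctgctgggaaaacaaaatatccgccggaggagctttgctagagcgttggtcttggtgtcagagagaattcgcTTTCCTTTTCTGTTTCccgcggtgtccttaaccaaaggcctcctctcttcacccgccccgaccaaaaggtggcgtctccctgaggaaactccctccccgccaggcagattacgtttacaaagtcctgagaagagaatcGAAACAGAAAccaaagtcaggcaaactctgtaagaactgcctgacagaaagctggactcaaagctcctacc
EIF2AK2: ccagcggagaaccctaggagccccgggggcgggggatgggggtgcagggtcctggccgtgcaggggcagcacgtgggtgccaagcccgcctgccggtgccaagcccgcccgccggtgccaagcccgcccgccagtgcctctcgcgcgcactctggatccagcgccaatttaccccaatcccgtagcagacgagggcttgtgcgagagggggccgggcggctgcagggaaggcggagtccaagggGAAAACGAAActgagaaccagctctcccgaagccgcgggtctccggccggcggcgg
TICAM1: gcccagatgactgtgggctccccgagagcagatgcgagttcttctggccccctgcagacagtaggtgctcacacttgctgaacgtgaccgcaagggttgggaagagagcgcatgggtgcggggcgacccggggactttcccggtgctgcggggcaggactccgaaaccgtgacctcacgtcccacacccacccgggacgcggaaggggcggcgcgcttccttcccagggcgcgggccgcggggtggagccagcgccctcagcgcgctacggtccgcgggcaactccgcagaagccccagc
MAVS: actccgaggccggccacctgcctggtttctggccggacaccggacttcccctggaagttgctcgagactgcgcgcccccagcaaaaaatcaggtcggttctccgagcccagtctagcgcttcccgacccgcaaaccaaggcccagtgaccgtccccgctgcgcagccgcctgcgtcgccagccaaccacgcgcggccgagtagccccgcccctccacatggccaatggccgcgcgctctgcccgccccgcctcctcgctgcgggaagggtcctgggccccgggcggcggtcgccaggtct

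The interferon-response core was found once in the TLR3 window, as TTTCACTTTC on the reverse strand from position −4 relative to the start, and once in the EIF2AK2 window, as GAAAACGAAA from position −6. IFIH1 held 3 matches, of which those from −159 and −153 overlap each other and the third starts at −21. No match lay in the windows of RIGI, TICAM1 or MAVS or in any of the 3 ADAR windows. Of 35114 RefSeq windows of this length, 3.57% held at least 1 match. The shorter core AANNGAAA, which overlaps the longer one, occurred in 22.8% of windows. It was found in the windows of TLR3, RIGI, IFIH1 and EIF2AK2, with 3 matches in RIGI, and in neither adaptor window. The STAT element occurred in 7.66% of all windows and, among these genes, only in TLR3, at −178 and −50. These matches describe letters within 300 bases and do not show binding. The windows also differ in base content, at 40.3% GC for TLR3, 50.7% for IFIH1, 72.3% for EIF2AK2, 70.0% for TICAM1 and 71.7% for MAVS. The RIGI and ADAR windows, without a match to the longer core, are not printed. Whether the matches bear on the differences between groups was not tested.

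Total counts ranged from 16413682 to 28258075 per library. Keratins and EPCAM of ductal epithelium were abundant, the 8 markers of that type summing to between 4263 and 7356 CPM (counts scaled by library size) in every library, although CFTR had only 49 counts in all. Of the 7 leukocyte markers TYROBP was at 0 in every library and PTPRC had 10 counts in all. Their sum of 141 to 211 CPM was mostly CD68, and LYZ was lower in every IRF1-KO library, with means of 43.1 CPM (WT) and 20.1 CPM (IRF1-KO). Fibroblast markers summed to 32.4 to 50.04 CPM over the WT libraries and 35.2 to 76.4 CPM over the others, and endothelial markers to 5.31 to 7.21 and 6.98 to 8.17 CPM; the part of these genes in the results was not tested. IRF1 itself was higher in the libraries labelled IRF1-KO, at 117, 123 and 132 CPM against 87.3, 91.3 and 82.6 CPM in the WT pools (log2 fold change 0.51 ± 0.10, SE; edgeR adjusted p = 0.135, 0.00105 to 0.451 over the alternatives). A Cas9 cut can disrupt the protein without lowering the transcript, so this check does not show whether IRF1 was lost, and "IRF1-KO" below names the label.

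Of the 9 genes TLR3 alone passed the test, and it fell in the IRF1-KO libraries. TLR3 (ENSG00000164342.12; GRCh38 chromosome 4, 186069152 to 186088069, plus strand, 5 merged exons of 6724 bases) counted 35.0, 41.7 and 30.7 CPM in the WT pools, in the order of their replicate numbers, and 9.14, 10.5 and 10.0 CPM in the IRF1-KO pools. Every IRF1-KO library lay far under every WT library, at 25.5%, 29.3% and 27.9% of the WT mean. The fitted log2 fold change was −1.85 ± 0.16 (SE) (adjusted p = 0.00737 by the quasi-likelihood test of edgeR, with Benjamini-Hochberg adjustment over all 13388 genes). The call was lost without IRF1-KO replicate 1 (−1.78, adjusted p = 0.0824) and without IRF1-KO replicate 3 (−1.86, adjusted p = 0.0659), while the size of the change stayed between −1.73 and −1.93 over the libraries left out in turn. Because the clone pools are bulk samples, fewer cells with a transcript and less transcript in each cell cannot be told apart, here or for the other genes. The nature of the replicates also matters, as nothing in the labels says that the pools were grown separately. The p-values set the difference between groups against the spread among the 3 libraries within each group. Whether that spread covers differences between clones is not known.

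Over all tested genes 15 (0.112%) were called lower and 2 (0.0149%) higher, against 1 lower and 0 higher of the 9 genes. By DESeq2, 4 of the 9 were lower, TLR3, IFIH1, EIF2AK2 and ADAR, beside 129 (0.964%) of all genes, and limma-voom called 1 lower, TLR3, beside 15 (0.112%) of all genes. At an unadjusted p of 0.05, 5 were lower with edgeR, those 4 and ZNFX1, beside 502 (3.75%) of all genes; 0 of the 9 were higher, beside 721 (5.39%). In 5 of the 9 genes, again these, every IRF1-KO library was under every WT library, as in 904 (6.75%) of all tested genes. The opposite pattern held in 0 of the 9 and in 1075 (8.03%) of all. Median log2 fold changes were −0.68 for the 6 sensors, 0.24 for the 2 adaptors and −0.02 for all tested genes. Without IRF1-KO replicate 2 the sensor median was −0.97 and the adaptor median 0.0088, and with a correction for GC content they were −0.65 and 0.15.

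**Figure D1:**
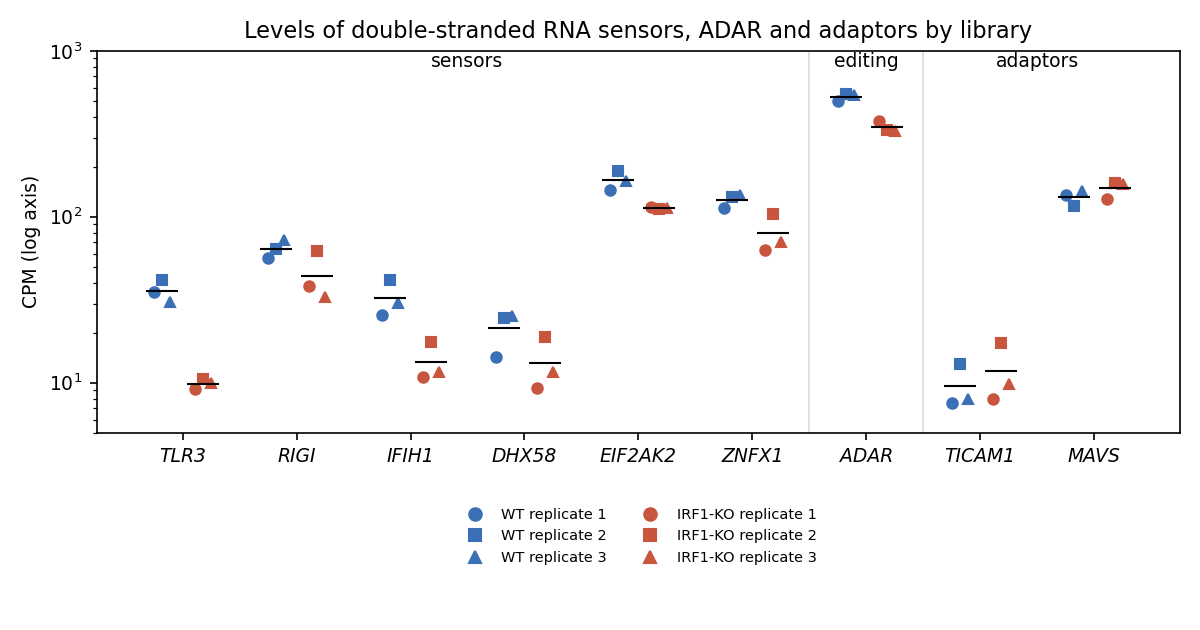
CPM on a log axis in each of the 6 libraries for the 6 sensors, ADAR and the 2 adaptors, with a bar at each group mean (n = 3 per group). TLR3, IFIH1, EIF2AK2, ZNFX1 and ADAR have all 3 IRF1-KO points under all 3 WT points, and the points of RIGI, DHX58, TICAM1 and MAVS overlap between groups.

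Of RIGI and IFIH1, the cytosolic receptors that signal through MAVS, IFIH1 had the larger fitted difference; the difference between them was not tested. IFIH1 (ENSG00000115267.7; chromosome 2, 162267074 to 162318703, minus strand) stood at 25.6, 41.6 and 30.3 CPM in the WT libraries, against 10.9, 17.7 and 11.6 CPM in the libraries labelled IRF1-KO. The groups did not overlap, and the IRF1-KO libraries stood at 33.4%, 54.3% and 35.7% of the WT mean. The log2 fold change of −1.28 ± 0.25 (SE) was not past the threshold with edgeR (adjusted p = 0.135) and was past it with DESeq2 (adjusted p = 0.000426); over the alternatives its lowest adjusted p was 0.000426 and its highest 0.452.

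RIGI (ENSG00000107201.10; chromosome 9, 32455302 to 32526208, minus strand) gave 56.8, 63.9 and 72.2 CPM in the WT pools, set against 38.2, 61.7 and 32.8 CPM in the IRF1-KO pools. IRF1-KO replicates 1 and 3 lay below every WT library, whereas IRF1-KO replicate 2, at 96.0% of the WT mean, lay within the WT range. RIGI thus had a log2 fold change of −0.54 ± 0.24 (SE; edgeR adjusted p = 0.554), and of −0.86 ± 0.16 without IRF1-KO replicate 2 (adjusted p = 0.227).

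DHX58 showed the same split among the IRF1-KO libraries. DHX58 (ENSG00000108771.13; chromosome 17, 42101404 to 42112714, minus strand) counted 14.3, 24.6 and 25.3 CPM across the WT pools and 9.27, 18.7 and 11.6 CPM across the IRF1-KO pools. IRF1-KO replicate 2 was above WT replicate 1 and the other IRF1-KO libraries were below all of WT. Fitted over all libraries, the log2 fold change was −0.69 ± 0.32 (SE; edgeR adjusted p = 0.577) and −1.03 ± 0.29 without IRF1-KO replicate 2 (adjusted p = 0.445).

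ZNFX1 (ENSG00000124201.15; chromosome 20, 49237946 to 49278426, minus strand) stood at 113, 131 and 135 CPM in the WT libraries, against 63.2, 104 and 70.7 CPM in the libraries labelled IRF1-KO. All IRF1-KO libraries were below all WT libraries, the nearest again being IRF1-KO replicate 2, at 82.5% of the WT mean against 50.007% and 55.9%. The log2 fold change was −0.67 ± 0.19 (SE; edgeR adjusted p = 0.303; DESeq2 adjusted p = 0.0578) and −0.92 ± 0.14 without that library (adjusted p = 0.125). ZNFX1 shares 203 of its 9340 exon bases with DDX27 and 249 with ZFAS1, both on the opposite strand. As the strand setting of the counting is not given, reads from these stretches cannot be assigned to 1 of the genes.

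**Figure D2:**
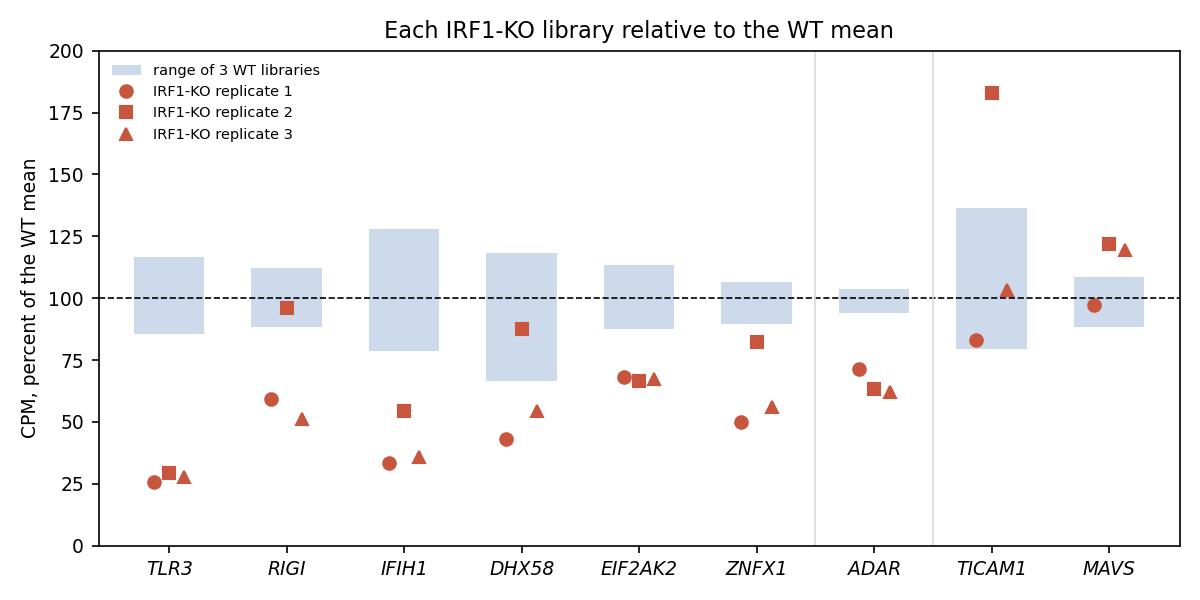
Each IRF1-KO library as a percentage of the WT mean CPM (dashed line at 100) for the 9 genes, with the range of the 3 WT libraries shaded. IRF1-KO replicate 2, the squares, stands above the other IRF1-KO libraries for RIGI (96.0%), DHX58 (87.6%), ZNFX1 (82.5%), IFIH1 (54.3%) and TICAM1 (183%), and close to them for TLR3 (29.3%) and EIF2AK2 (66.4%).

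EIF2AK2 had IRF1-KO values that lay close together. EIF2AK2 (ENSG00000055332.18; chromosome 2, 37099210 to 37157065, minus strand) gave 146, 189 and 165 CPM in the WT pools, set against 114, 111 and 113 CPM in the IRF1-KO pools. The IRF1-KO libraries lay within 66.4% to 68.2% of the WT mean and below every WT library. Its log2 fold change was −0.57 ± 0.12 (SE; edgeR adjusted p = 0.158; DESeq2 adjusted p = 0.00288; 0.00288 to 0.455 over the alternatives). EIF2AK2 shares 35 of its 10753 exon bases with GPATCH11 and 401 with a processed pseudogene, both on the opposite strand.

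ADAR, the editing enzyme, was the most abundant of the 9 genes. ADAR (ENSG00000160710.16; chromosome 1, 154582057 to 154628013, minus strand) counted 499, 550 and 540 CPM across the WT pools and 379, 335 and 328 CPM across the IRF1-KO pools. Its groups did not overlap, and the IRF1-KO libraries stood at 71.5%, 63.1% and 61.9% of the WT mean. For ADAR the log2 fold change was −0.61 ± 0.11 (SE; edgeR adjusted p = 0.120; DESeq2 adjusted p = 1.57e-05; 1.57e-05 to 0.451 over the alternatives). The gene-level counts do not separate its interferon-induced long form from its constitutive short form. ADARB1, the related editing enzyme, had means of 19.6 CPM (WT) and 19.2 CPM (IRF1-KO).

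Neither adaptor passed the test in either direction. TICAM1 (ENSG00000127666.9; chromosome 19, 4815932 to 4831704, minus strand, 2 merged exons) stood at 7.55, 13 and 8.03 CPM in the WT libraries, against 7.93, 17.4 and 9.85 CPM in the libraries labelled IRF1-KO. The groups overlapped widely, with replicate 2 the highest in each. The log2 fold change was 0.31 ± 0.34 (SE; edgeR adjusted p = 0.862) and −0.10 ± 0.30 without IRF1-KO replicate 2 (adjusted p = 0.955). TICAM1 has the most GC-rich transcript of the 9, at 63.0%, and with a correction for GC content its value was 0.05 ± 0.28 (adjusted p = 0.979).

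MAVS (ENSG00000088888.18; chromosome 20, 3846799 to 3876123, plus strand) gave 136, 116 and 143 CPM in the WT pools, set against 128, 160 and 157 CPM in the IRF1-KO pools. IRF1-KO replicate 1 lay within the WT range and the other IRF1-KO libraries above it. The log2 fold change was 0.17 ± 0.13 (SE; edgeR adjusted p = 0.781), and 0.25 ± 0.14 after the GC correction. Neither value shows that the adaptors were equal between groups, since changes of the size of these errors would not be seen with 3 libraries a group.

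**Figure D3:**
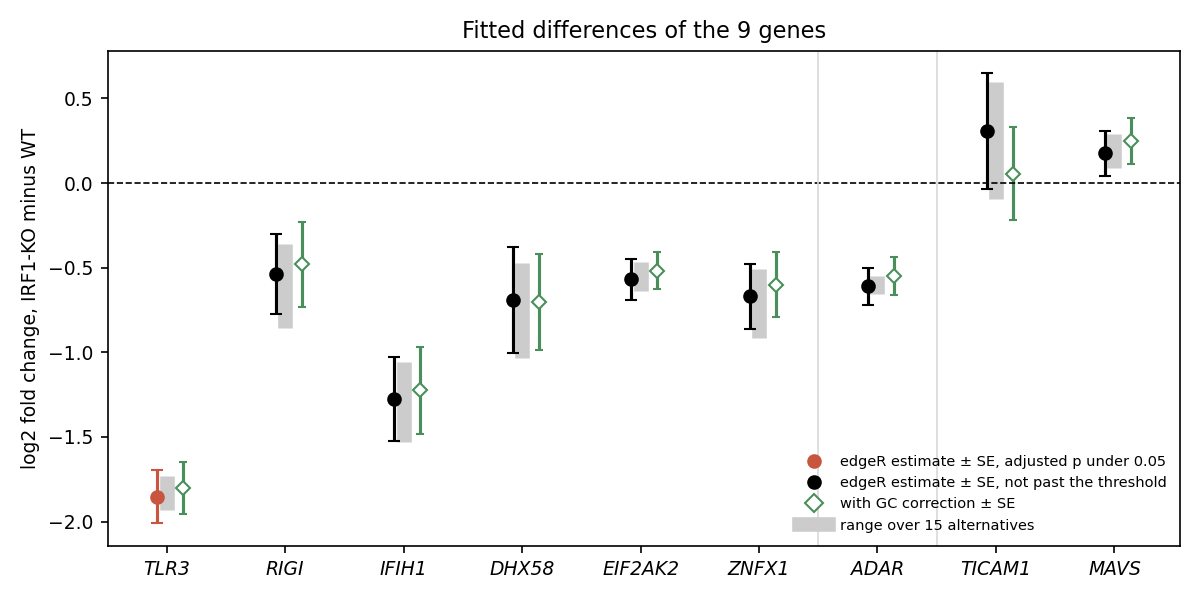
Log2 fold change of IRF1-KO against WT for the 9 genes, as fitted by edgeR with its SE (filled circles), after the GC correction with its SE (open diamonds), and as a grey bar over the 15 alternatives. TLR3, at −1.85, is the 1 gene past the threshold; the 7 sensor and ADAR values lie under 0 in every alternative, and TICAM1 spans −0.10 to 0.59.

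The sensors were set against the adaptor they signal through within each library, as log2 CPM of the sensor minus log2 CPM of the adaptor. TLR3 stood above TICAM1 by 2.20, 1.68 and 1.92 in WT and by 0.20, −0.72 and 0.02 in IRF1-KO. In WT the TLR3 counts thus exceeded those of its adaptor in each library. In IRF1-KO the counts of the pair were near each other or reversed. The difference between group means was −2.10. It ran from −1.81 with the GC correction and −1.82 without IRF1-KO replicate 2 to −2.28 without IRF1-KO replicate 1. CPM are not scaled by gene length, and TLR3 has 6724 exon bases against 2676 for TICAM1. The order within a pair is therefore not an order of levels. Per kilobase of exon, mean CPM of TLR3 and TICAM1 were 5.32 and 3.56 in WT and 1.47 and 4.38 in IRF1-KO. For RIGI and MAVS they were 13.9 and 11.2 in WT and 9.54 and 12.6 in IRF1-KO. RIGI stood at −1.26, −0.86 and −0.98 relative to MAVS in WT and at −1.74, −1.38 and −2.25 in IRF1-KO, a difference of −0.76. IFIH1 stood at −2.40, −1.48 and −2.23 relative to MAVS in WT and at −3.55, −3.18 and −3.75 in IRF1-KO, a difference of −1.45. All 3 ratios were lower in 3 of 3 IRF1-KO libraries than in every WT library. Among single tested genes this pattern held in 6.75%, and its share over gene pairs was not computed. The RIGI counts by themselves overlapped between groups, and MAVS in IRF1-KO replicate 2 stood at 122% of its WT mean. In the exact permutation test, two-sided over 20 assignments of the libraries, each ratio gave p = 0.1, the smallest that 3 against 3 allows. After Benjamini-Hochberg adjustment over the 3 ratios this p stayed at 0.1. RIGI and IFIH1 share MAVS as the denominator, so their ratios are not independent.

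**Figure D4:**
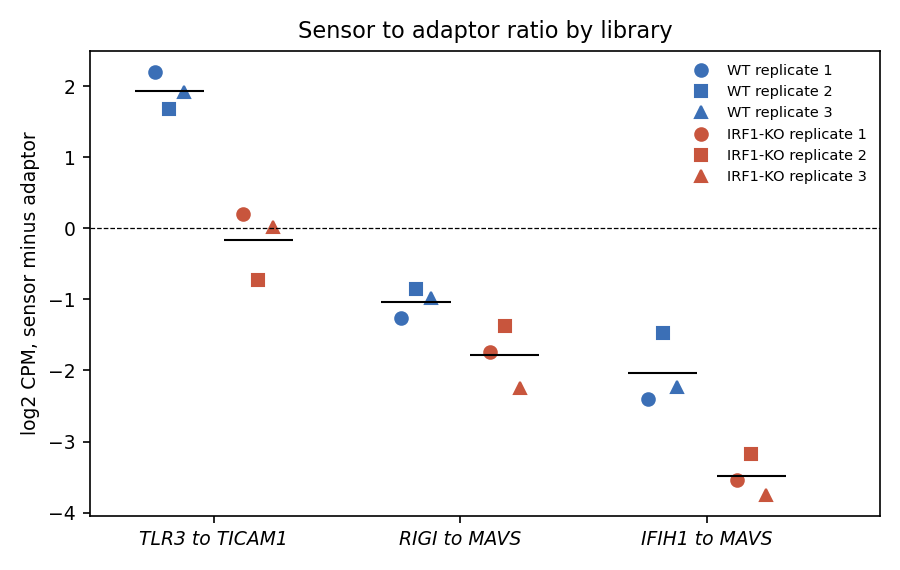
Log2 CPM of each sensor minus that of its adaptor in the 6 libraries, with a bar at each group mean (n = 3 per group). The IRF1-KO points lie under the WT points for all 3 pairs, the group means differing by −2.10 for TLR3 to TICAM1, −0.76 for RIGI to MAVS and −1.45 for IFIH1 to MAVS.

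Levels were compared between genes per kilobase of exon (RPKM, CPM divided by the summed exon length in kilobases), which counts exons of all isoforms and so understates genes with long rare ones. ADAR led in both groups, at 54.7 ± 2.80 RPKM in WT and 35.8 ± 2.84 RPKM in IRF1-KO (SD, n = 3 each), clear of the next gene. In WT there followed EIF2AK2 at 15.5 ± 2.03, RIGI at 13.9 ± 1.67 and ZNFX1 at 13.5 ± 1.23 RPKM, whose ranges overlapped from each to the next. MAVS, at 11.2 ± 1.17 RPKM, lay under ZNFX1 and over IFIH1 without overlap with either. The lowest were IFIH1 at 6.36 ± 1.61, DHX58 at 5.60 ± 1.61, TLR3 at 5.32 ± 0.828 and TICAM1 at 3.56 ± 1.13 RPKM, neighbours overlapping throughout.

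The order per kilobase was not the same in the IRF1-KO libraries. MAVS was second, at 12.6 ± 1.52 RPKM (SD, n = 3), followed by EIF2AK2 at 10.5 ± 0.146, RIGI at 9.54 ± 3.32 and ZNFX1 at 8.50 ± 2.34 RPKM. TICAM1, at 4.38 ± 1.88 RPKM, overlapped DHX58 at 3.45 ± 1.29, which overlapped IFIH1 at 2.62 ± 0.730 RPKM. TLR3 was last, at 1.47 ± 0.102 RPKM, with no overlap with IFIH1.

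The genes with the profile closest to TLR3 were sought among 12090 others with a mean of at least 2 CPM, by the root mean square difference over the 6 libraries of log2 CPM centred on each gene's mean. ERAP2 was nearest, at 0.16, followed by IL15RA at 0.23, LGALS9 at 0.25, GBP3 at 0.26 and PARP14 at 0.28. ERAP2 trims peptides for MHC class I, IL15RA is a cytokine receptor chain, LGALS9 encodes a galectin, GBP3 a guanylate-binding protein and PARP14 a mono-ADP-ribosyltransferase. LGALS9 had a log2 fold change of −1.84 ± 0.28 (SE; edgeR adjusted p = 0.0854), and the other 4 were past the threshold. Of the 15 alternatives, ERAP2 was past it in 12, GBP3 in 11, PARP14 in 10 and IL15RA in 9. These genes and LGALS9 were chosen for likeness to TLR3 over the same 6 libraries, so their lower IRF1-KO values follow largely from that choice. Their calls are not a test separate from that choice. Of the 8 other genes described here, IFIH1 came nearest to TLR3, at rank 19 with 0.36, then ZNFX1 at rank 133 with 0.61. RIGI was at rank 275, MAVS at rank 9199 and TICAM1 at rank 10356.

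The rest of the pathway was read through 9 lists of other genes, with 108 distinct genes tested. With edgeR 0 were past the threshold in either direction. At an unadjusted p of 0.05, 19 were lower and 3 higher, beside 502 (3.75%) and 721 (5.39%) of all tested genes. DESeq2 called 8 lower and 1 higher, beside 129 and 203 of all tested genes, and limma-voom 0. The median of the 108 was −0.06 on the log2 scale. In 20 of the 108 every IRF1-KO library was below every WT library, and in 4 the reverse. Over all tested genes these patterns held in 904 (6.75%) and 1075 (8.03%). The same shares over all genes stand beside the counts of each list below. Genes named from these lists, other than the 1 with the smallest p in each, were chosen after their values were seen.

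The first list holds genes that deliver TLR3 to endosomes or carry its signal from TICAM1. Over its 15 genes the median of the log2 fold changes was −0.07, and 0 were past an unadjusted p of 0.05 with edgeR or called by DESeq2 or limma-voom. UNC93B1, which carries TLR3 to endosomes, had the smallest p, with 38.1 ± 3.66 CPM over the WT pools and 47.9 ± 8.57 CPM over the IRF1-KO pools (SD, n = 3 in each group) and a log2 fold change of 0.33 ± 0.16 (SE; edgeR adjusted p = 0.594). Its transcript is 65.5% GC, and with the GC correction its direction turned, to −0.10. Of the other Toll-like receptors, TLR1, TLR2, TLR4 and TLR6 were tested and 0 were past an unadjusted p of 0.05. For TLR1 every IRF1-KO library lay above every WT library, with a log2 fold change of 0.42 ± 0.19 (SE, edgeR adjusted p = 0.577). TLR7 had 3 counts and TLR8 had 2 counts over all 6 libraries. MYD88, the adaptor of most Toll-like receptors but not of TLR3, counted 43.1, 45.6 and 37.5 CPM across the WT pools and 28.1, 33.8 and 30.7 CPM across the IRF1-KO pools. Its groups did not overlap, and its log2 fold change was −0.45 ± 0.13 (edgeR adjusted p = 0.305).

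Of 16 cofactors of the cytosolic receptors 0 were past the threshold with edgeR, 2 were lower and 1 higher at an unadjusted p of 0.05, and the median of their log2 fold changes was 0.07. DESeq2 called 1 lower and 1 higher, and limma-voom 0. DDX60, a helicase linked to RIGI, was at −1.81 ± 0.44 (SE; edgeR adjusted p = 0.224; DESeq2 adjusted p = 0.000347), counting 43.6, 80.6 and 106 CPM across the WT pools against 14.998, 34.6 and 15.7 CPM across the IRF1-KO pools, and ZC3HAV1, an antiviral zinc-finger protein, was at −0.38 ± 0.11. ZNF598, a ubiquitin ligase of stalled ribosomes, stood on the other side at 0.88 ± 0.16 (edgeR adjusted p = 0.133; DESeq2 adjusted p = 0.000433), with a transcript of 65.0% GC and a value of 0.50 after the GC correction. TRIM25, a ubiquitin ligase of RIGI, was at −0.16 ± 0.11, and at −0.09 with the GC correction. Of 16 negative regulators NLRC5, better known as the activator of MHC class I genes, was at −1.04 ± 0.22 (edgeR adjusted p = 0.166; DESeq2 adjusted p = 0.00306), NLRX1, a mitochondrial inhibitor of MAVS, at 0.32 ± 0.14 (0.11 with the GC correction, adjusted p = 0.912), and the list's median at −0.04. With edgeR and with limma-voom 0 of these 16 were past the threshold, DESeq2 called 1 lower, and 1 was lower and 1 higher at an unadjusted p of 0.05.

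The kinases and transcription factors that carry the signal onward numbered 15, with −0.01 as the median of their log2 fold changes, −0.20 with the GC correction and −0.13 without IRF1-KO replicate 2. With edgeR, DESeq2 and limma-voom 0 were past the threshold, and 2 were lower at an unadjusted p of 0.05 with edgeR. NFKB1 was at −0.29 ± 0.11 (SE) and TBK1, the kinase on which both adaptors converge, at −0.30 ± 0.12, each with all IRF1-KO libraries under all WT libraries. IRF3, the factor that TBK1 activates, was at 0.19 ± 0.13, and at 0.05 with the GC correction. The eIF2alpha kinases and phosphatases, the group that shares a substrate with EIF2AK2, had a median of −0.05 over 7 genes, none past an unadjusted p of 0.05 with edgeR or called by DESeq2 or limma-voom. Their values ran from −0.13 ± 0.12 for PPP1R15B, a phosphatase subunit, to 0.04 for PPP1R15A.

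Transcripts of interferon beta, interferon kappa and the lambda interferons were at the limit of detection. IFNB1 had 2, 0 and 1 counts in WT and 0, 2 and 0 counts in IRF1-KO, where 3 counts correspond to 0.105 to 0.183 CPM. IFNL1, IFNL2 and IFNL3 had 3, 1 and 3 counts over all libraries, and IFNK had 0. Differences in these genes were not detectable at this depth. IFNE, an interferon of epithelia, was the 1 interferon gene tested, at 1.75, 4.46 and 2.11 CPM in the WT pools and 0.854, 1.33 and 1.99 CPM in the others. IRF1-KO replicate 3 lay above WT replicate 1, and the log2 fold change was −0.98 ± 0.47 (SE; edgeR adjusted p = 0.610). Of the 7 tested genes of this list, 4 were lower at an unadjusted p of 0.05, IFIT1, IFIT2, IFIT3 and OASL. The list's median was −1.42 on the log2 scale. CXCL10 was the 1 gene of the list above 0, at 0.39 ± 0.57 (SE; edgeR adjusted p = 0.896), and was at −0.36 without IRF1-KO replicate 2. At the threshold edgeR and limma-voom called 0 and DESeq2 called 3, IFIT2, IFIT3 and OASL. IFIT3, which binds viral RNA together with IFIT1, stood at 87.6, 171 and 172 CPM in the WT libraries, against 25.4, 39.8 and 27.2 CPM in the libraries labelled IRF1-KO. Its log2 fold change was −2.22 ± 0.30 (SE; edgeR adjusted p = 0.0663; DESeq2 adjusted p = 7.90e-12; up to 0.385 over the alternatives). IFIT3 was past the threshold without WT replicate 1 (−2.46, edgeR adjusted p = 0.0253) and without WT replicate 3 (−2.05, adjusted p = 0.0487). ISG15, a ubiquitin-like modifier, varied more within groups than between them, at 17.6, 86.1 and 96.4 CPM over the WT pools and 30.1, 77.0 and 30.5 CPM over those labelled IRF1-KO. WT replicate 1 was the lowest of all 6 libraries, and the log2 fold change was −0.54 ± 0.65 (SE; edgeR adjusted p = 0.877).

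Genes of 17 other sensors and binding proteins of double-stranded RNA had −0.04 as their median log2 fold change. With edgeR and limma-voom 0 were past the threshold, DESeq2 called OAS1 and OAS3, and 4 were lower at an unadjusted p of 0.05, OAS1, OAS2, OAS3 and NLRP1. OAS3, an interferon-induced oligoadenylate synthetase, had the smallest p. OAS3 gave 162, 203 and 228 CPM in the WT pools, set against 64.4, 116 and 63.6 CPM in the IRF1-KO pools (log2 fold change −1.28 ± 0.26, SE; edgeR adjusted p = 0.155; DESeq2 adjusted p = 0.000161). Without IRF1-KO replicate 2, OAS3 was at −1.63 and past the threshold with edgeR (adjusted p = 0.0459). OAS1 was at −1.79 ± 0.38 (edgeR adjusted p = 0.179) and NLRP1, an inflammasome sensor, at −1.03 ± 0.31 (edgeR adjusted p = 0.336). OAS2 was at −2.06 ± 0.61 (edgeR adjusted p = 0.340), and its groups overlapped. Its IRF1-KO replicate 2, at 33.1 CPM, lay above WT replicate 1, at 31.9 CPM. DICER1 was at −0.23 ± 0.14 and DROSHA at 0.06 ± 0.12.

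Of 9 genes that carry the interferon signal, 0 were past the threshold with edgeR or limma-voom, DESeq2 called 1 lower, and 5 were lower and 1 higher at an unadjusted p of 0.05, with a median of −0.38 on the log2 scale. STAT2 and IRF9, subunits of an interferon-activated transcription factor, were at −0.61 ± 0.17 and −0.77 ± 0.23 (SE). The receptor chains IFNLR1 and IL10RB were at −0.51 ± 0.21 and −0.38 ± 0.14, the type I receptor chain IFNAR1 at −0.07 ± 0.11, and the kinase TYK2 at 0.38 ± 0.14.

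**Figure D5:**
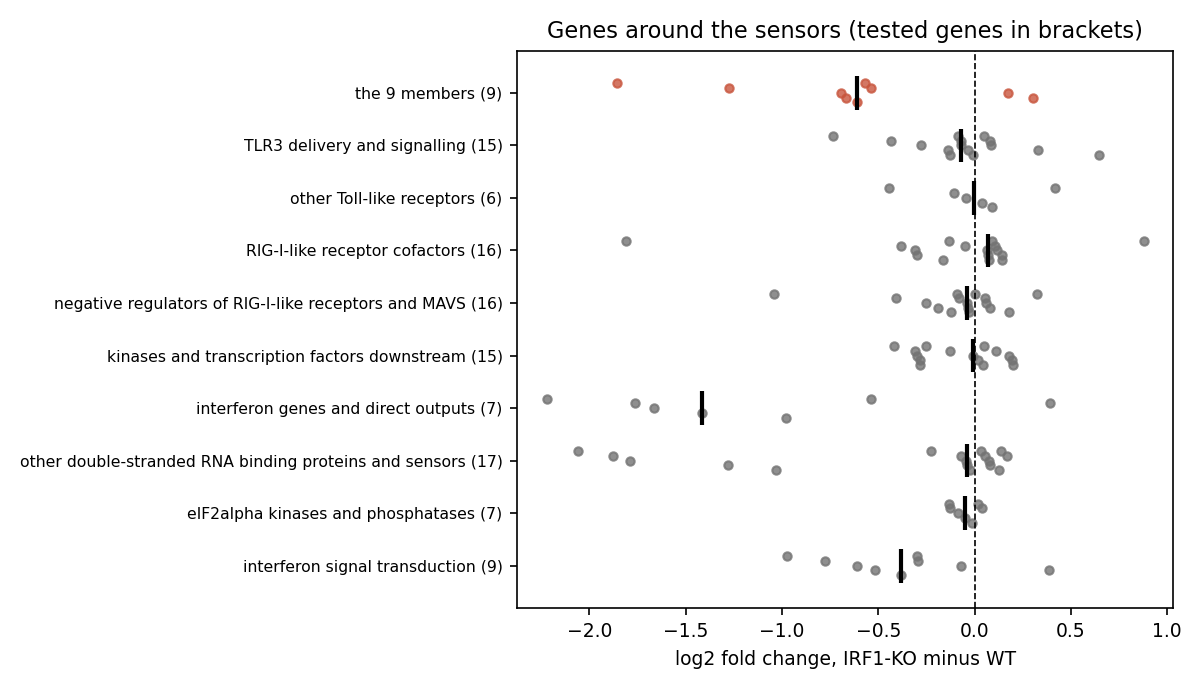
Log2 fold change of each tested gene (points) and the median (bar) for the 9 genes described here and for the 9 lists of other genes around them. As plotted, without the GC correction, the medians of 7 lists lie between −0.07 and 0.07 (with it, that of the downstream kinases and factors is −0.20) and those of the interferon output and interferon signal lists at −1.42 and −0.38; the vertical scatter within a line only separates points.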

How the data were processed

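Poly(A)-selected RNA of 6 libraries was sequenced with Illumina TruSeq chemistry, per the labels' protocols. The authors deposited whole-number counts per gene, with the exon coordinates and gene lengths in the layout of featureCounts, per the file headers; featureCounts 0.6.1, edgeR 3.2.2 and GRCh38 (hg38) are named in the submitters' processing notes. What aligner, annotation and strand setting were used is not stated in the labels or headers. The members and lists were chosen with earlier results of these data known.

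Counts were analysed over the whole table in R 4.3.3 with edgeR 4.0.16: filterByExpr, TMM factors, robust dispersions and the quasi-likelihood F test, two-sided, with Benjamini-Hochberg adjustment over 13388 genes and a threshold of 0.05. Standard errors are those implied by the F statistic. CPM use TMM-scaled library sizes, and log2 CPM a prior count of 2. Alternatives were DESeq2 1.42.0, limma-voom (limma 3.58.1), factors by RLE or the upper quartile, testing unfiltered, a stricter filter (5 CPM or more in 3 libraries), a replicate block, a GC correction (spline with 5 degrees of freedom on transcript GC in GENCODE 29), the block and this correction together, and each library left out. Named were the 9 genes, IRF1, the 5 genes nearest to TLR3, and from each list the genes past the threshold or else the one with the smallest p. Some genes of the lists are counted but not reported here by name. The procedure was tested on simulated data. No pair of libraries within a group agreed within sampling noise (chi-square per degree of freedom 25.8 to 55.0). Symbols came from a table of current names for 19342 identifiers.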

Additional observations from a re-analysis of the deposited data

How the results depend on the processing

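The 6 sensors and ADAR kept a negative sign in all 15 alternatives, and MAVS a positive one. TLR3 was past the threshold in 13 of 15, between −1.93 and −1.73 over the libraries left out. DESeq2 also called IFIH1 (−1.27), EIF2AK2 (−0.57) and ADAR (−0.61). TICAM1 ran from −0.10 without IRF1-KO replicate 2 to 0.59 without WT replicate 2, and UNC93B1 turned to −0.10 with the GC correction and to −0.10 with that correction and the replicate block together. Of 135 values of the 9 genes under alternatives, 128 kept direction and side of the threshold.

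Same-numbered libraries did not all deviate together (correlations of −0.02, 0.25 and 0.06), so replicate numbers were not taken as pairs. With the replicate block IFIH1 was past the threshold (−1.29, edgeR adjusted p = 0.0450), as was IFIT3 (−2.19), 2 of the 9 genes were lower, no other call among them changed, and 27 genes were lower and 4 higher in all; with the block and the GC correction 0 were higher, and neither IFIH1 (−1.24, adjusted p = 0.0577) nor IFIT3 (−2.15, adjusted p = 0.0555) was past the threshold.

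The count of genes called lower, 15, was 26 with no filter and 129 with DESeq2, and 3 to 36 over the libraries left out (3 without IRF1-KO replicate 1 or 3, 5 without WT replicate 2, 36 without WT replicate 3). The count called higher, 2, was 5 with no filter, 4 with the stricter filter, 203 with DESeq2, 0 with the GC correction and 0 to 55 over the libraries left out. Of the 9 genes, 4 were lower with DESeq2 and 0 to 1 over the libraries left out. All 3 sensor to adaptor differences kept their sign under every alternative run, and the block leaves these differences as they are (exact sign-flip p = 0.25, the smallest 3 pairs allow). TICAM1 rests on the fewest reads of the 9 genes, 1436 in all.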
